A study of Homo sapiens with 3 samples.

Results

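Transcripts of 10 genes of the Notch pathway were measured in A498, an established epithelial cell line derived from a carcinoma of the human kidney, with E. coli 83972, with DRB and in a control culture. They were the receptor genes NOTCH1, NOTCH2 and NOTCH3, the ligand genes JAG1, JAG2 and DNER, the DNA-binding factor gene RBPJ, and the target genes HES1, HES4 and HEY1. The 10 genes, out of 18239 with a named probe set, were taken by symbol. The set was selected on these same measured values: the brightest probe set of HES1 differed from control in opposite directions on the 2 treated arrays. The other members were also chosen with earlier results of these data known. The values and ranks of all 10 genes are therefore given as a description. A probe set is a group of short array probes read as 1 value, and only probe sets annotated to a single gene were used, 33 for these genes.

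In Notch signalling a ligand on one cell binds a receptor on its neighbour, and the receptor is cut first by an ADAM protease and then by gamma-secretase. The freed intracellular domain enters the nucleus, joins the DNA-binding protein RBPJ and a Mastermind coactivator, and switches on genes of the HES and HEY families. These encode basic helix-loop-helix repressors, and HES1 also represses its own gene. In kidney the pathway is known for its part in forming the proximal segments of the nephron.

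One culture of each kind was profiled 4 h after the addition of the bacterium, of DRB or of solvent. E. coli 83972 is known for colonizing the urinary tract without symptoms. The labels disagree on its concentration, so none is given. DRB, an inhibitor of the kinase CDK9 that blocks elongation by RNA polymerase II, was used at 60 µM, and the control culture received 0.08% DMSO. All 3 cultures were of one established line, in serum-free medium with gentamicin, and belonged to the same experiment. DMSO is stated for the control only, so its effect cannot be told apart from that of either treatment.

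Each group had 1 array, so every difference below compares 2 arrays, with no replicate check and no p-value. Values are on a log2 scale, where a difference of 1 is 2-fold, and a gene was represented by its brightest probe set. The filter level was 4.88, the median of all values, and 11653 genes that reached it on at least 1 array were kept, among them 9 of the 10 described here (all but HEY1). The technical error of a difference was estimated from how far a gene's first and second brightest kept probe sets disagreed. It gave a standard deviation, which holds no variation between cultures, of 0.18 for E. coli 83972 minus control, 0.32 for DRB minus control and 0.35 for E. coli 83972 minus DRB. In the lowest of 3 ranges of level these were 0.23, 0.42 and 0.44. All 5 epithelial and renal carcinoma markers with a named probe set were kept (PAX8, PAX2, KRT8, KRT18 and CA12). PAX2 was the dimmest of these, at 5.90 with E. coli 83972, 5.62 with DRB and 5.69 in the control. Of markers of other cells, 1 of 4 leukocyte, 2 of 4 endothelial and 1 of 4 fibroblast genes were kept, at values of 5.60 or less. In bulk RNA, fewer cells of a kind and less RNA per cell cannot be told apart. The values are relative within an array: with centring on the poly-A spike-ins, bacterial control transcripts usually added before labelling, the median of all genes for DRB minus control lay at -0.79, against 0.05 as deposited.

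Against control, HES1 was the 1 of the 9 kept genes that differed by at least 2-fold on either treated array. It was lower with E. coli 83972 and higher with DRB. Of all kept genes 0.652% passed 2-fold downwards and 1.91% upwards with E. coli 83972, and 10.2% downwards and 0.129% upwards with DRB. The ligand gene DNER ran in the same directions as HES1 by less, and the ligand gene JAG1 ran in the opposite ones.

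**Figure D1:**
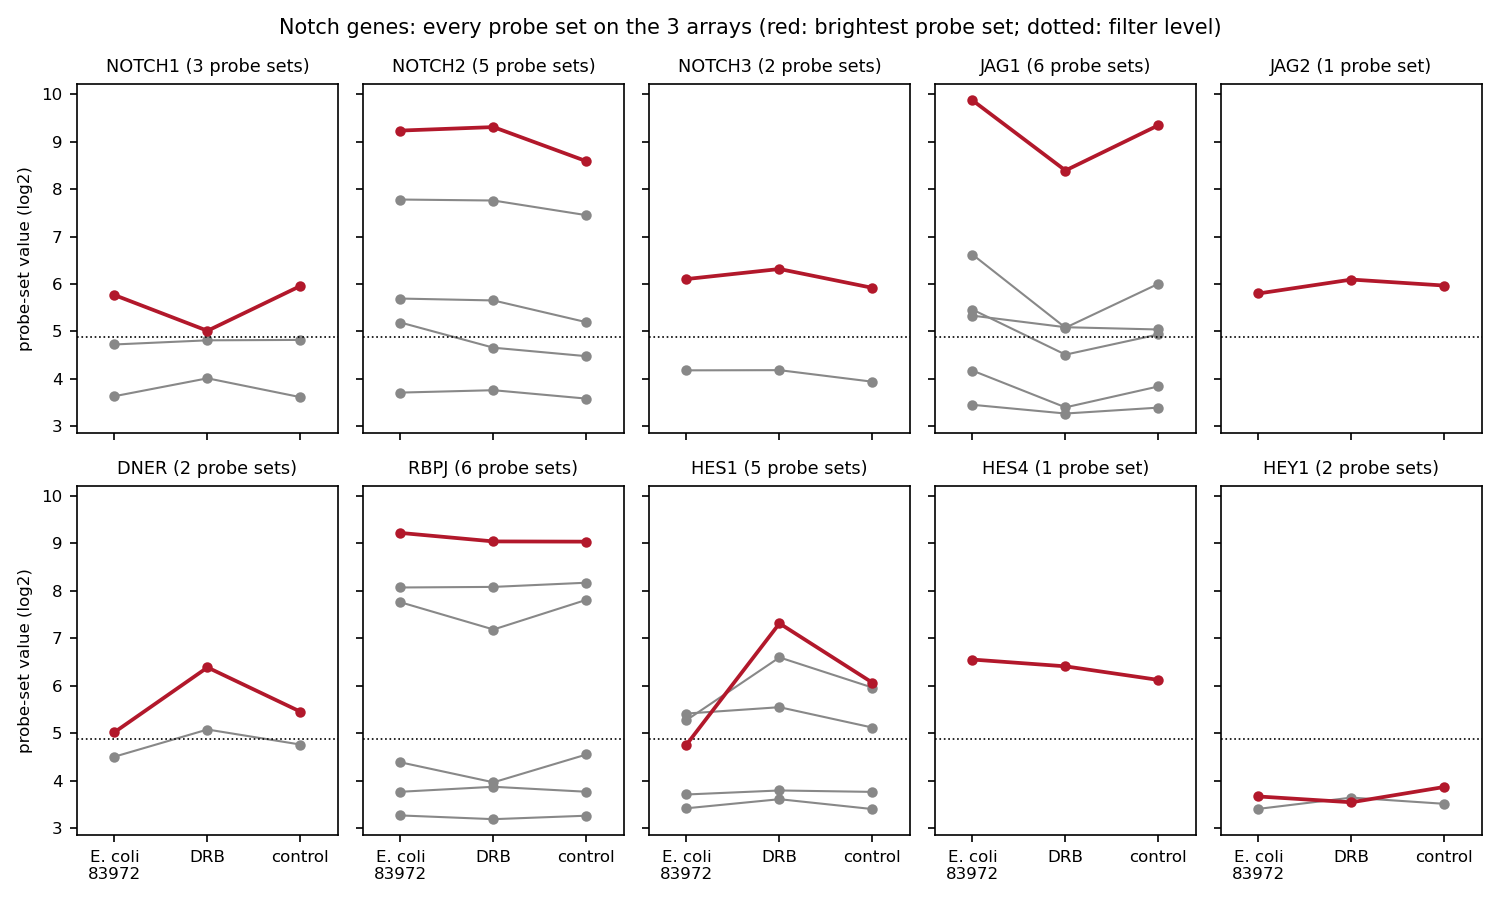
Log2 value of each of the 33 probe sets of the 10 Notch genes on the E. coli 83972, DRB and control arrays. Lines join 1 probe set, the brightest in red, and the dotted line is the filter level of 4.88. HES1 and DNER peak on the DRB array, 5 of 6 probe sets of JAG1 have their lowest value there, and both probe sets of HEY1 lie under the filter level.

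Of the receptor genes, NOTCH2 was higher on both treated arrays. Its brightest probe set read 9.24 with E. coli 83972 and 9.31 with DRB, against 8.59 in the control. The differences were 0.65 and 0.72, and all 5 probe sets lay above control on both arrays, with means of 0.46 ± 0.24 and 0.37 ± 0.23 (SD over 5 probe sets of 1 array pair). Of these 5, 4 reached the filter level. A further 3 probe sets carry a near-identical copy of the gene in their annotation beside NOTCH2 and were left out, and probe sets named for NOTCH2 alone may still bind that copy. With poly-A centring NOTCH2 differed by -0.12 between DRB and control.

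NOTCH3 read 6.11 with E. coli 83972 and 6.32 with DRB, against 5.92 in the control. Its differences of 0.19 and 0.40 were close to the technical standard deviation in size. Both of its probe sets lay above control on both arrays, but the dimmer one was under the filter level on all arrays. With poly-A centring it was at -0.44 for DRB minus control. NOTCH1, the receptor best known from T-cell leukaemia, was dimmer with DRB. It read 5.77 with E. coli 83972 and 5.01 with DRB, against 5.96 in the control, and differed by -0.19 and -0.95. The other probe sets of NOTCH1 were under the filter level and differed by -0.01 and 0.40 for DRB minus control, so the lower value rests on 1 probe set.

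Among the ligand genes, JAG1, which encodes a membrane-bound ligand of all these receptors, read 9.87 with E. coli 83972 and 8.39 with DRB, against 9.35 in the control. The E. coli 83972 array was the highest and the DRB array the lowest. Its 6 probe sets were all above control with E. coli 83972 (mean 0.39 ± 0.20), and 5 of 6 were below control with DRB (mean -0.47 ± 0.41, SD over 6 probe sets). Of these 6, 4 reached the filter level. The differences of the brightest probe set were 0.52 and -0.95, and the next brightest gave 0.62 and -0.93. JAG2, a ligand of the same class, read 5.80 with E. coli 83972 and 6.10 with DRB, against 5.97 in the control, with differences of -0.17 and 0.13 from a single probe set, the second at -0.71 with poly-A centring.

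DNER, a transmembrane protein with EGF-like repeats described in neurons as a Notch ligand, was highest with DRB. Its brighter probe set read 5.02 with E. coli 83972 and 6.39 with DRB, against 5.45 in the control, and differed by -0.43 and 0.93. The dimmer one read 4.50 with E. coli 83972 and 5.08 with DRB, against 4.76 in the control, with differences of -0.26 and 0.32. Only its DRB value reached the filter level, so it was kept through the array where it was highest. Its order of arrays is given as a description. DNER ranked 26th from the highest of 11653 genes for DRB minus control. With poly-A centring that difference was 0.10, still above 0.

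RBPJ, through which all 3 receptors act on DNA, showed small differences in its brightest probe set. It read 9.22 with E. coli 83972 and 9.04 with DRB, against 9.04 in the control. The differences of 0.18 and 0.0048 were no larger than about the technical standard deviation over all levels. In the highest of 3 ranges of level that standard deviation was 0.13 for E. coli 83972 minus control and 0.17 for DRB minus control. Over its 6 probe sets, of which 3 reached the filter level, the means were -0.02 ± 0.12 for E. coli 83972 and -0.21 ± 0.31 for DRB. The lowest DRB difference was -0.63, in a probe set that read 7.19 with DRB and 7.81 in the control.

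The target genes HES1 and HES4 are shown with the sequence before their starts because both carry the letters bound by RBPJ there, yet they stood differently on the arrays. Each stretch is the 250 bases before the annotated start, read 5′ to 3′ on the gene's strand, from RefSeq on build GRCh38.p14. Capitals mark the RBPJ motif GTGGGAA and its core TGGGAA, searched on both strands. The core lies within the longer motif.
HES1 (chr3:194135898-194136147, plus strand): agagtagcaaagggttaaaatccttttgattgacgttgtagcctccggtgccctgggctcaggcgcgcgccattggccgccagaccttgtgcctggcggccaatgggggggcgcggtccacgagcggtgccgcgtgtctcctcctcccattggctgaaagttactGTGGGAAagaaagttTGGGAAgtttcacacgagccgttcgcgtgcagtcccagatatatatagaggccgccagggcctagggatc
HES4 (chr1:1000098-1000347, minus strand): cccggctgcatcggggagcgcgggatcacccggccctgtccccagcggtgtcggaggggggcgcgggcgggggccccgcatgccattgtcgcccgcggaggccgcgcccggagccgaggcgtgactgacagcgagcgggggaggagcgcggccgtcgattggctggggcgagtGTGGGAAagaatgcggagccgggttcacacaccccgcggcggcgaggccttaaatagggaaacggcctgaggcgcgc

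In HES1 the longer motif spans positions -85 to -79 from the start, with a second core at -70 to -65. In HES4 the motif spans -77 to -71. The longest run shared by the 2 stretches, TGTGGGAAAGAA, has 12 bases and begins at -86 in HES1 and at -78 in HES4. The run was picked as shared by these 2, so their own windows are counted by construction. It occurs, on either strand, in 6 of 35116 windows of the same length (0.0171%). GTGGGAA occurs in 5.43% and TGGGAA in 20.8% of these windows. The N box CACNAG, the site that HES proteins prefer, was found 3 times in the HES1 stretch and 0 times in that of HES4, against 32.0% of windows with at least 1 match. RefSeq windows were matched for 8 of the 10 genes (not DNER or HEY1). Of the other 6, the motif GTGGGAA was found at 1 of the 5 annotated starts of RBPJ, with 2 matches, and in none of the windows of NOTCH1, NOTCH2, NOTCH3, JAG1 and JAG2. A match is a description of letters and not a measured binding site.

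**Figure D2:**
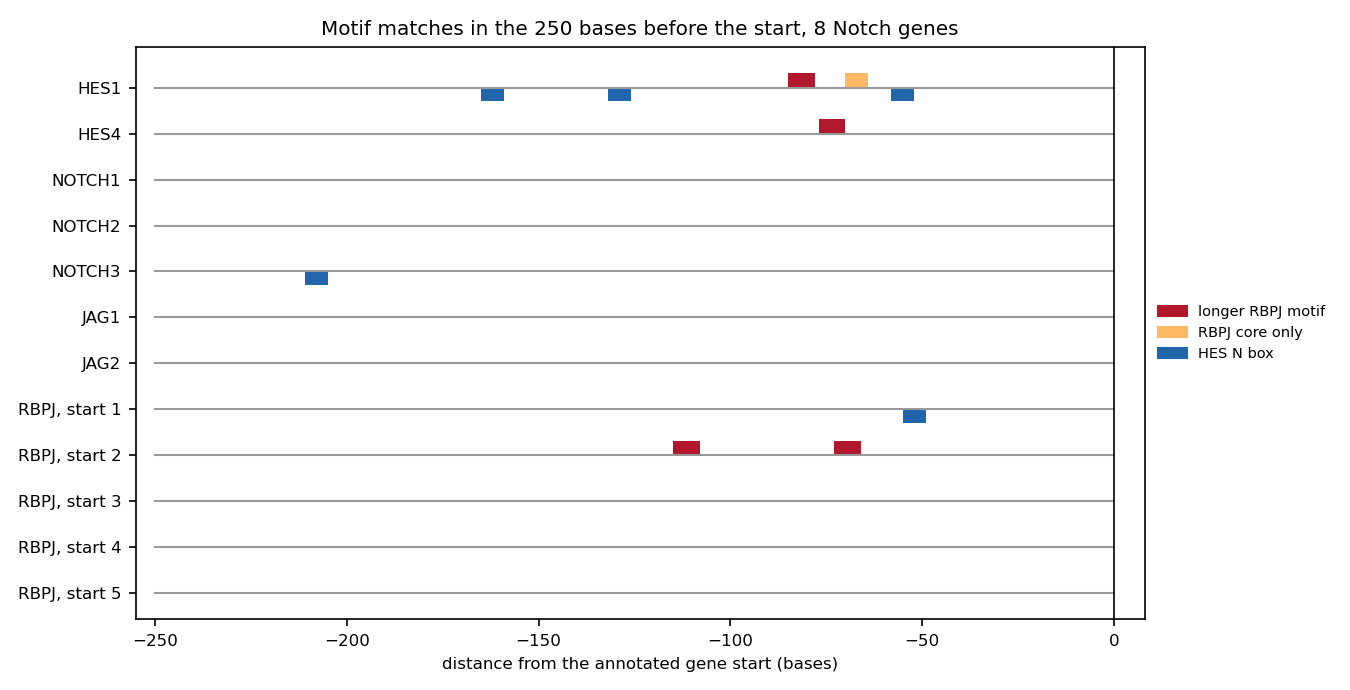
Positions of motif matches in the 250 bases before each annotated start, for the 8 genes with a RefSeq window, with distance from the start in bases on the x axis. Red boxes are the longer RBPJ motif, orange its core alone and blue the N box. HES1 has 1 red, 1 orange and 3 blue boxes, and HES4 has 1 red box at nearly the same distance.

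HES1, the repressor that oscillates in many dividing cells and has a short-lived mRNA, showed the set's largest differences. Its brightest probe set read 4.76 with E. coli 83972 and 7.31 with DRB, against 6.06 in the control. The E. coli 83972 array was lowest, just under the filter level, where values are compressed, and the DRB array highest. HES1 was 2.47-fold lower with E. coli 83972 (log2 -1.31), the 35th lowest of 11653 genes. With DRB it was 2.38-fold higher (1.25), the 5th highest.

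The 5 probe sets of HES1 did not give equal sizes. The second read 5.27 with E. coli 83972 and 6.60 with DRB, against 5.96 in the control, in the same order with differences of -0.69 and 0.64. The third, whose suffix marks possible cross-hybridization, read 5.41 with E. coli 83972 and 5.55 with DRB, against 5.12 in the control, above control on both arrays. The other two were under the filter level on all arrays. Over the 5 the mean was -0.35 ± 0.65 for E. coli 83972 minus control, with 3 lower and 2 higher, and 0.51 ± 0.47 for DRB minus control, with 5 higher. Thus the lower value with E. coli 83972 rests on the 2 brightest probe sets. With poly-A centring HES1 was higher with DRB by 0.41, under 2-fold.

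HES4 did not follow HES1. A close relative that is absent from the mouse genome, it read 6.55 with E. coli 83972 and 6.41 with DRB, against 6.12 in the control. Both treated arrays were above control, by 0.43 and 0.29, on its single probe set, and the DRB difference turned to -0.55 with poly-A centring. HEY1, a repressor of the related HEY family, had values of 3.66 with E. coli 83972 and 3.54 with DRB, against 3.87 in the control, all under the filter level, so no difference is read from them.

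**Figure D3:**
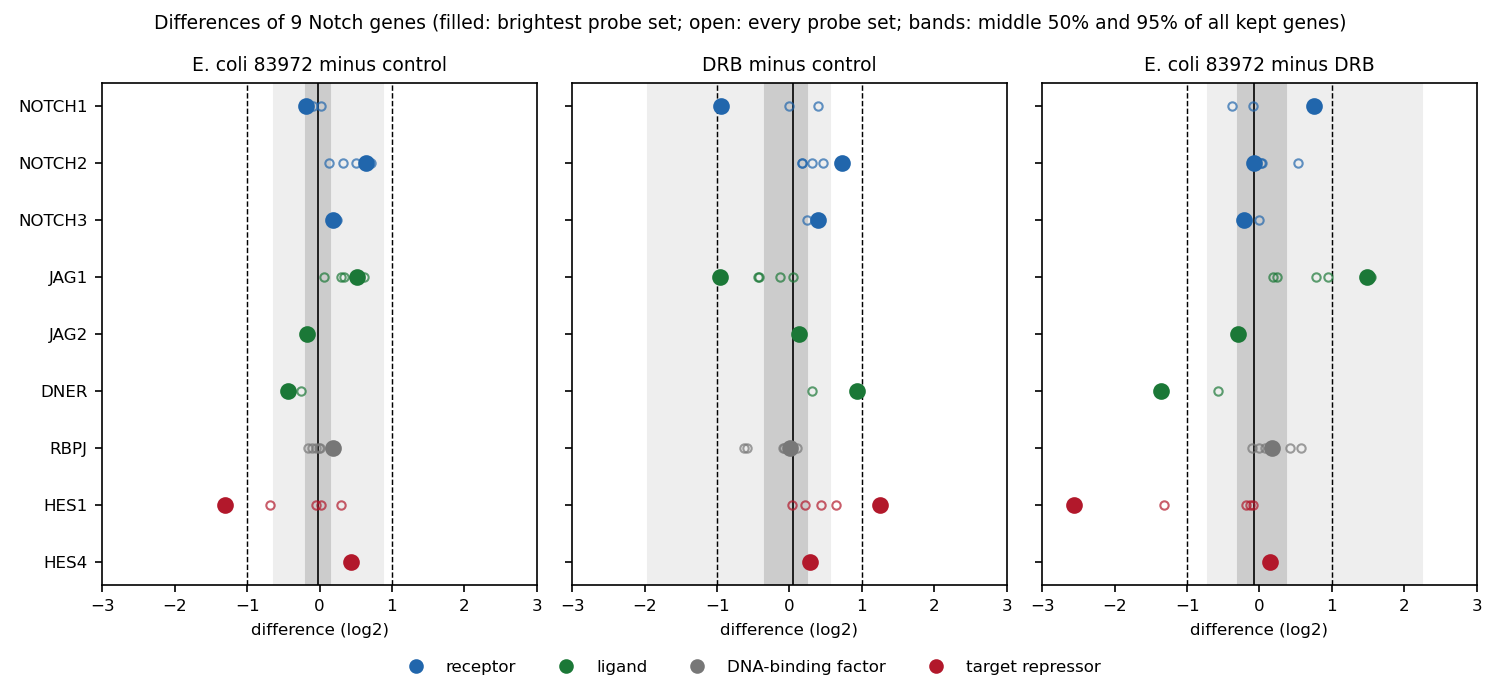
Log2 differences of the 9 kept Notch genes for the 3 pairs of arrays. Filled points are the brightest probe set, open points every probe set, grey bands the middle 50% and 95% of all kept genes with their median as a line, and dashed lines 2-fold. HES1 lies past 2-fold in all 3 panels, and DNER and JAG1 only for E. coli 83972 minus DRB, on opposite sides.

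Set directly against each other, the 2 treated arrays separated 3 of these genes by at least 2-fold. HES1 was 5.89-fold lower with E. coli 83972 than with DRB (-2.56), the 2nd lowest of 11653 genes, and all 5 of its probe sets lay below 0 (mean -0.86 ± 1.08). Its E. coli 83972 value of 4.76 was under the filter level, so this fold and rank are uncertain, and they are a description of the gene that chose the set. DNER was 2.58-fold lower (-1.37), the 10th lowest, with a mean of -0.97 ± 0.56 over 2 probe sets. The dimmer of these was under the filter level with E. coli 83972. Of all kept genes 0.386% were at least 2-fold lower. JAG1 was 2.79-fold higher (1.48), as were 12.3% of all kept genes, and its 6 probe sets lay above 0 (mean 0.86 ± 0.58). With poly-A centring the differences were -1.70 for HES1, -0.50 for DNER and 2.34 for JAG1. NOTCH1 differed by 0.75, and the other 5 kept genes by -0.29 to 0.18.

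The likeness of other genes to HES1 was measured as the Euclidean distance between their 3 array values, each gene centred on its own mean. The nearest of 11652 genes were TNFRSF10D (distance 0.60), a decoy receptor of the death ligand TRAIL, C12orf76 (0.68), ARRDC3 (0.70), an alpha-arrestin, GCSH (0.71), a subunit of the glycine cleavage system, and ZC3HAV1 (0.81), an antiviral zinc finger protein. DNER came next, in rank 6 (0.87). TNFRSF10D read 5.50 with E. coli 83972 and 7.80 with DRB, against 7.38 in the control. JAG1 was the farthest of the set, in rank 10795 (2.86). Over 3 arrays such a rank describes these arrays only, and HES1 was chosen for its values on them.

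A wider list of 85 pathway genes had 80 with a named probe set, of which 67 were kept. With E. coli 83972 2 of 67 passed 2-fold upwards (2.99%, against 1.91% of all kept genes) and 3 downwards (4.48%, against 0.652%), and the median difference was 0.03, against -0.03 for all kept genes. With DRB 1 passed 2-fold upwards (1.49%, against 0.129%) and 12 downwards (17.9%, against 10.2%), and the median was -0.01 against 0.05. With the mean of the kept probe sets 7 of 67 were at least 2-fold lower with DRB, beside 999 of all 11666 genes. Both comparisons share the control array. The 3 genes lower with E. coli 83972 were NEURL1B, ID1 and ID2. The list was chosen with earlier results of these data known, so its shares here and below are a description.

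The machinery that modifies and cleaves the receptors had 0 of 13 kept genes at least 2-fold different on either treated array. Of all kept genes 1.91% passed 2-fold upwards and 0.652% downwards with E. coli 83972, and 0.129% and 10.2% with DRB. With E. coli 83972 12 of 13 lay below control, with a median of -0.11, against -0.03 for all kept genes. Most of the 12 differed by less than the technical standard deviation of 0.18, such as FURIN at -0.0017. LFNG, the fringe glycosyltransferase that tunes ligand choice, differed by -0.74 and PSEN2, a catalytic subunit of gamma-secretase, by -0.48. Over their probe sets the means were -0.32 ± 0.59 (n = 2) for LFNG and -0.12 ± 0.20 (n = 6) for PSEN2, with 1 and 3 of them above 0. ADAM17, a sheddase that can cut Notch, was the exception at 0.56. With the mean of the kept probe sets 10 of 13 lay below control. With DRB the median was 0.19, against 0.05 for all kept genes. LFNG was at -0.77 (-0.23 ± 0.77 over 2), while NCSTN, of gamma-secretase, differed by 0.35. APH1B, of the same complex, differed by 0.42 in its brightest probe set but by -0.59 ± 1.00 over 6. With poly-A centring all 13 lay below control with DRB, as did 66 of the 67 kept genes of the wider list. Their median was then -0.65 for the 13, against -0.79 for all kept genes. The 3 kept genes of other ligands differed by -0.28 to 0.26 on either array, and NOTCH4 was not kept.

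Genes of trafficking and turnover held 1 of 14 at least 2-fold lower with E. coli 83972, against 0.652% of all kept genes, and 3 with DRB, against 10.2%. NEURL1B, a ubiquitin ligase that acts on Notch ligands, read 4.91 with E. coli 83972 and 4.97 with DRB, against 6.15 in the control, with differences of -1.25 and -1.19 on 1 probe set. Both treated values lay close to the filter level, so the sizes cannot be compared. FBXW7, the F-box protein that marks the Notch intracellular domain for degradation, differed by -0.51 and -1.14. DTX2, a Deltex ubiquitin ligase, was higher with E. coli 83972 (0.55) and lower with DRB (-1.02).

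Of nuclear coactivators 3 of 9 were at least 2-fold lower with DRB, against 10.2% of all kept genes, and the median was -0.70. The acetyltransferase genes KAT2A and KAT2B lay above control, at 0.30 and 0.07. MAML1, a Mastermind coactivator of the RBPJ complex, read 9.44 with E. coli 83972 and 7.17 with DRB, against 9.34 in the control. Its DRB difference was -2.17, but the mean over 2 probe sets was -0.95 ± 1.73. MAML2 differed by -1.32 and CDK8, the Mediator kinase that phosphorylates the Notch intracellular domain, by -1.28, with means over 2 probe sets of -0.62 ± 0.99 and -0.66 ± 0.87. With the mean of the kept probe sets 1 of the 9 was at least 2-fold lower. The acetyltransferase genes EP300 and CREBBP differed by -0.70 and -0.73. With E. coli 83972 none of the 9 was 2-fold different, with a median of 0.19 and MAML2 highest at 0.72 (0.42 ± 0.42 over 2 probe sets), EP300 at 0.56 and CREBBP at 0.54.

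Of 12 kept nuclear corepressor genes, 1 was at least 2-fold higher with E. coli 83972 (8.33%, against 1.91% of all kept genes). It was SPEN, which competes with the Notch intracellular domain for RBPJ. With DRB 1 was at least 2-fold lower, TLE3 (8.33%, against 10.2% of all kept genes). SPEN read 8.43 with E. coli 83972 and 7.17 with DRB, against 6.38 in the control, a difference of 2.04 for the bacterium and 0.79 for DRB. The mean over its 3 probe sets was 1.71 ± 0.74 with E. coli 83972 and 0.43 ± 0.69 with DRB, with 3 and 2 of them above control. With poly-A centring all 12 corepressor genes lay below control with DRB. TLE3, a Groucho-type corepressor that HES proteins recruit, read 8.10 with E. coli 83972 and 5.96 with DRB, against 7.16 in the control. Its differences were 0.95 and -1.19, opposite in direction to those of HES1, but the mean over its 2 probe sets for DRB was -0.42 ± 1.08. TLE4 differed by 0.55 with E. coli 83972, and TLE1 by -0.72 with DRB.

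**Figure D4:**
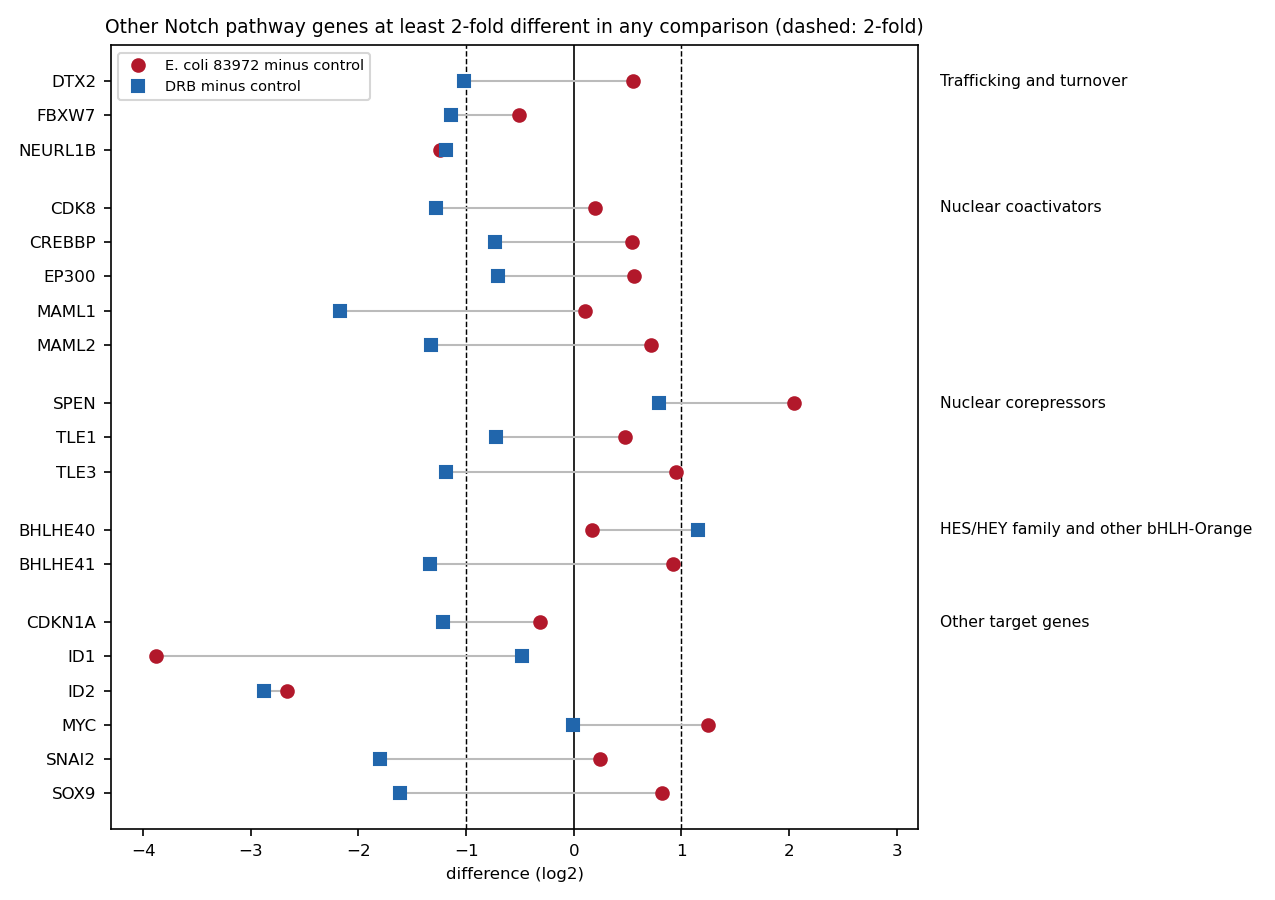
Log2 differences from the shared control array for the 19 genes of the wider pathway list at least 2-fold different in any comparison, ordered by role. Red circles are E. coli 83972 and blue squares DRB, and dashed lines mark 2-fold. SPEN and MYC lie past 2-fold higher with E. coli 83972, ID1 and ID2 far to the left, and MAML1 has the lowest DRB value among the coactivators.

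Among other HES, HEY and related repressors 6 of 9 were kept. BHLHE40, a HES-like repressor known for hypoxia and clock responses, was higher with DRB by 1.15 on 1 probe set. Its paralogue BHLHE41 was lower (-1.33, with a mean of -0.39 ± 0.82 over 3 probe sets). With poly-A centring 0 of the 6 were at least 2-fold higher with DRB. With E. coli 83972 BHLHE40 and BHLHE41 differed by 0.17 and 0.92. HES6, which opposes HES1, differed by -0.31 with E. coli 83972 and -0.47 with DRB, and HES2 by -0.21 and 0.27. HES5, a classic Notch target in neural tissue, and HEY2 were not kept.

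Other genes listed as targets held 10 kept genes. MYC, a direct Notch target in T-cell leukaemia, read 10.80 with E. coli 83972 and 9.55 with DRB, against 9.56 in the control, higher by 1.25 with the bacterium. ID1 and ID2, better known as targets of BMP signalling, were lower with E. coli 83972 by -3.88 and -2.66, and ID2 also with DRB (-2.88). ID2 read 4.72 with E. coli 83972 and 4.50 with DRB, against 7.38 in the control, so both treated values were under the filter level and its differences are uncertain in size. SOX9, SNAI2 and CDKN1A were lower with DRB (-1.61, -1.80 and -1.22), and differed by 0.82, 0.25 and -0.31 with E. coli 83972. SNAI2 read 4.38 with DRB on its 1 probe set, under the filter level, so its DRB difference is uncertain in size. NRARP, a feedback inhibitor that depends closely on Notch activity, differed by 0.26 with E. coli 83972 and 0.10 with DRB.

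With E. coli 83972 set against DRB, 13 of the 67 genes passed 2-fold upwards (19.4%, against 12.3% of all kept genes) and 1 downwards (1.49%, against 0.386%), and the median was 0.03, against -0.07 for all kept genes. Coactivators gave 5 of the 13, among them MAML1 (2.27) and MAML2 (2.04), and the corepressor TLE3 differed by 2.14. Their means over 2 probe sets each were 1.04 ± 1.73, 1.04 ± 1.41 and 1.28 ± 1.21. BHLHE41 (2.25, or 0.82 ± 1.24 over 3 probe sets) and SOX9 (2.43) were also higher, and ID1 was lower (-3.40). NEDD4, a ubiquitin ligase, differed by 0.96, and MFAP2 by -0.53. Of the cleavage genes 11 of 13 lay below 0, with a median of -0.32. The median of all kept genes was also below 0, at -0.07. By brightest probe set the lowest cleavage genes were APH1B (-0.55), NCSTN (-0.48) and the protease gene ADAM10 (-0.41). The mean over the 6 probe sets of APH1B was 0.82 ± 1.31, of opposite sign to its brightest one. With poly-A centring all 13 cleavage genes were above 0, as were 65 of the 67 genes. The median of the cleavage genes was then 0.54, against 0.79 for all kept genes.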

How the data were processed

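Messenger RNA of 3 A498 cultures (1 array each) was measured on Affymetrix expression arrays. The deposited values are log2 probe-set values that the authors made with RMA and Partek, per the submitters' processing notes. Not given in the sources used here were their versions and how many arrays were processed together. RMA brings arrays to nearly one distribution, so a change shared by most transcripts is reduced. Array medians were 4.90 for E. coli 83972, 4.88 for DRB and 4.87 for the control.

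Of 49386 probe sets, 45259 had 1 gene symbol, 1327 several and 2800 were not listed in the platform annotation. Symbols were updated through RefSeq (GRCh38.p14) for 45178. No further normalization, pseudocount or test was applied. Calculations used Python 3.11.15 with pandas 2.3.3 and were tested on simulated data. Alternatives were the mean of kept probe sets, plain-suffix probe sets, no filter, a filter at 6, and centring on 12 poly-A spike-in probe sets or on the array median. All 10 genes were named. Of the wider list, genes at least 2-fold different and, by role, the 3 largest differences were named, and the 5 genes nearest to HES1. Members and lists were chosen with earlier results of these data known. Genes, markers and windows without a named entry were not analysed here.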

Additional observations from a re-analysis of the deposited data

How the results depend on the processing

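No paired analysis was possible because each group had 1 array, and no replicate could be left out. HES1 kept its direction under all 6 alternatives in all 3 comparisons, but not its size. For E. coli 83972 minus control it differed by -0.57 with the mean of the kept probe sets and by -0.69 with plain-suffix probe sets only. For DRB minus control it differed by 0.77 and 0.64 under these, and by 0.41 with poly-A centring. For E. coli 83972 minus DRB it stayed past 2-fold at smaller sizes, -1.34 with the mean of the kept probe sets, -1.32 with plain-suffix probe sets and -1.70 with poly-A centring. With plain-suffix probe sets 3493 genes were left, so counts fell by construction. At least 2-fold higher and lower were 82 and 22 genes for E. coli 83972 minus control, 7 and 403 for DRB minus control, and 499 and 17 for E. coli 83972 minus DRB. Poly-A centring shifts all genes alike. It gave 1 higher and 3806 lower for DRB minus control, and 3930 higher and 4 lower for E. coli 83972 minus DRB. Of the wider pathway, 5, 13 and 14 genes were at least 2-fold different in the 3 comparisons, in that order. Plain-suffix probe sets gave 0, 4 and 5, poly-A centring gave 28 for DRB minus control and 33 for E. coli 83972 minus DRB, and the mean of the kept probe sets gave 8 for DRB minus control, whose cause was not tested. In the other 51 of 72 values HES1 stayed past 2-fold or a count stayed within 1.5 times. Every value rests on single arrays, and signal near the filter level limits those of HEY1, HES1 with E. coli 83972, DNER and NOTCH1 with DRB.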

Other observations

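Of the kept genes with a RefSeq window, 660 held GTGGGAA in the 250 bases before a start. With E. coli 83972 10 of them were at least 2-fold higher than control (1.52%, against 1.89% of all 9563 kept genes with a window) and 1 lower, HES1. With DRB 84 were at least 2-fold lower (12.7%, against 10.4%) and 2 higher, HES1 and ZBTB20. HES1 was chosen for its values in these comparisons, so nothing is read from the counts that hold it. ZBTB20 encodes a zinc finger repressor and was named after its values were seen.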
